A study of Mus musculus with 96 samples.

Results

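The abundance of poly(A) RNA was compared between neural tubes of heterozygous Eif3c Xs-J mouse embryos and of wild-type embryos. All 6 RNA-seq libraries of the series were used, 3 per genotype, which are 48 of its 96 lane samples. The other 48 samples are ribosome footprints of the same cell suspensions, and they appear here only beside genes that differed in RNA. Members of the comparison were all genes with a coding transcript in GENCODE vM21, each represented by its transcript with the highest total count. Of 22422 such genes, 13406 had enough reads to be tested.

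The wild-type group was C3HeB at E11.5, and the mutant group carried 1 copy of Xs-J, an Eif3c allele, at the same age (genotype C3HeB/Eif3cXs-J/+). No treatment, transgene or Cre driver is named in the labels. Per the labels' protocols, a preparation used the neural tubes of a litter, dissociated with papain. Each library would then be a pool of embryos, but sex-linked RNA, given below, differed widely between libraries. The libraries of each genotype carry the numbers TC1, TC5 and TC6 in the labels, called libraries 1, 2 and 3 here. The labels do not say what a number shared by both genotypes stands for, nor that the libraries came from separate litters. The tests therefore compare libraries and not litters.

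The protein eIF3c is a core subunit of eukaryotic initiation factor 3, the largest of the factors that load the small ribosomal subunit onto mRNA. A change in initiation acts first on protein synthesis, and mRNA levels can follow through the amounts of transcription factors and signals made. In the embryonic neural tube, dividing progenitors line the central canal and leave the cell cycle to become neurons in outer layers, so bulk RNA holds both cell-cycle and neuronal transcripts. In bulk RNA, fewer cells of a type and less RNA per cell cannot be told apart, and this holds for every result below.

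Coding counts per library ran from 7.20M to 13.1M. Sox2, a transcription factor of neural progenitors, was at 228 to 248 CPM (counts scaled to library size) in all 6 libraries. Tubb3, the tubulin of young neurons, was at 1242 to 1581 CPM. The keratin genes Krt5 and Krt14 of surface epithelium and the notochord gene Noto had no count in any library. Other notochord markers were present, with Chrd at 19.0 to 25.9 CPM and T at 0.973 to 1.96 CPM. Mesenchyme and somite markers summed to 1064 to 1572 CPM over the libraries. Markers of neural crest, sensory ganglion and Schwann cells summed to 661 to 744 CPM. Mutant library 1 stood apart in blood and vessel markers. The summed level of 29 erythroid genes was 7014 CPM there and 3138 to 3919 CPM in the other 5 libraries, and that of 19 endothelial genes was 836 CPM against 496 to 593 CPM.

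The libraries also differed in RNA of sex-linked genes. Ddx3y, Eif2s3y, Kdm5d and Uty, which lie on the Y chromosome, summed to 293, 262 and 8.20 CPM in wild-type libraries 1, 2 and 3. They summed to 332, 151 and 5.32 CPM in the mutant libraries. Xist, the noncoding RNA of the inactive X chromosome, ran the other way, at 1522, 2312 and 6348 CPM in wild type and 1664, 4973 and 7133 CPM in the mutant. Both libraries numbered 3 thus held little Y-linked RNA, and mutant library 2 held less than the other libraries numbered 1 or 2. The labels do not give the sex of the embryos. Whether each library was a pool of a whole litter, as the protocols describe, was not tested. Counts below are therefore also given without both libraries numbered 3.

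The mutated gene was the clearest difference. Eif3c (ENSMUSG00000030738.11, mm10 chromosome 7, 126546455 to 126566411, minus strand, counted over coding exons) was at 518, 497 and 474 CPM in the wild-type libraries and at 296, 289.8 and 302 CPM in the mutant libraries. The genotypes were separated by a wide gap, and the mutant libraries lay close together. The mutant mean was 0.596 of wild type, and Eif3c fell by 0.75 ± 0.06 on the log2 scale (SE, edgeR's quasi-likelihood test, Benjamini-Hochberg adjusted p = 0.000615). The log2 change was -0.77 when reads of the 3' untranslated region were counted in place of the coding sequence. Its footprints were at 760.2, 739.9 and 743 CPM in wild type and at 403, 355 and 379 CPM in the mutant. Without both libraries numbered 3 the RNA change of Eif3c was -0.80, with an edgeR adjusted p of 0.113.

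RNA of the other eIF3 subunits was not called in either direction. Of 12 subunits tested, Eif3c was the only one past the threshold, against 0.388% of all genes tested, and the list's median log2 change was 0.12. Eif3e, which sits in the same part of the complex as Eif3c, was at 228, 192 and 218 CPM in wild type and at 252 to 262 CPM in the mutant (edgeR adjusted p = 0.0888). Eif3a, the scaffold of the complex, was at 726 to 744 CPM and at 803 to 891 CPM (edgeR adjusted p = 0.166). Among 37 other initiation factors, 0 were called by edgeR and 12 had an unadjusted p under 0.05, against 17.5% of all genes tested. The median log2 change of the 37 factors was 0.10 (0.16 without mutant library 2), against 0.01 for all genes tested.

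Genes beside Eif3c on chromosome 7 were examined next. The 6 nearest genes tested (Cln3, Atxn2l, Tufm, Sh2b1, Sgf29 and Rabep2) had log2 changes from -0.06 to 0.11, and none was called. Within 5 Mb on either side, 130 genes were tested and 1 was called, the kinase gene Sbk1 (0.388% of all genes tested were called). The median log2 change there was 0.01, and 13.8% had an unadjusted p under 0.05, against 17.5% of all genes tested (8.29% higher and 9.24% lower).

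Across all genes, 52 of 13406 (0.388%) passed the threshold of adjusted p under 0.05, with 30 higher (0.224%) and 22 lower (0.164%) in the mutant. In all 52 the 3 mutant libraries lay outside the range of the 3 wild-type libraries. Such separation was far more common than a call, since 11.2% of all genes tested had every mutant library above and 11% had every mutant library below. Changes were small, with a median size of 0.47 on the log2 scale among the called genes, and 90% of all genes tested lay between -0.37 and 0.38. The adjusted p of the 51 called genes other than Eif3c ran from 0.0365 to 0.0498, and 482 genes had an adjusted p under 0.1. No predicted gene named by a number was among the calls. Mutant library 2 had the smallest change of the 3 in 20 of the 30 genes that rose and in 18 of the 22 that fell.

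**Figure D1:**
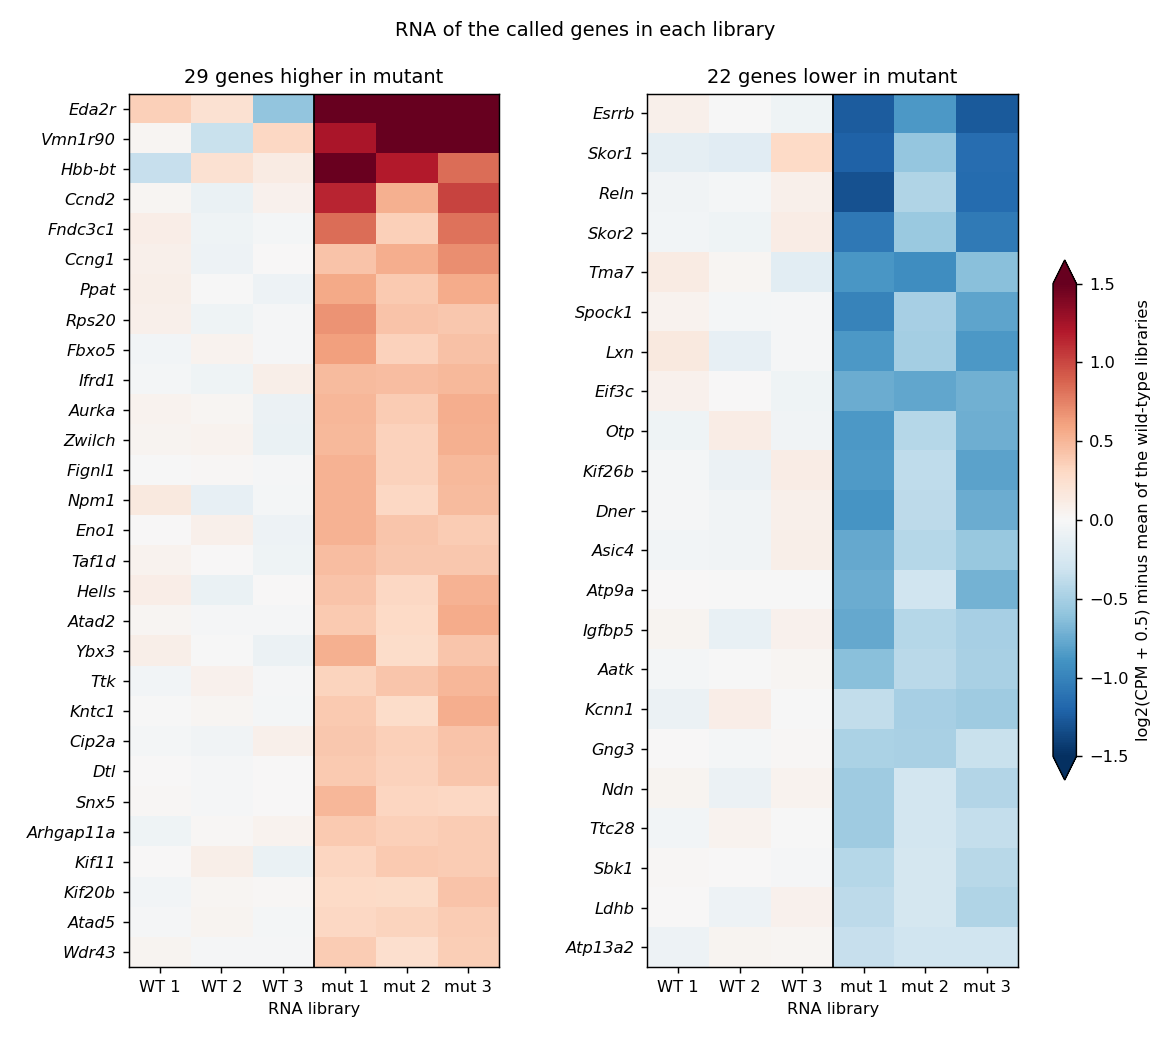
Heat maps of 51 of the 52 called genes, with RNA libraries as columns and genes as rows. Colour is log2(CPM + 0.5) minus the mean over the 3 wild-type libraries, saturating at the ends of the colour bar, and mutant library 2 is the palest mutant column for most genes.

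The called genes differed in base composition by direction. Coding GC content had a median of 44.3% in the 30 genes that rose and 59.9% in 21 of the genes that fell, against 53.2% over all genes tested with a value (no value was held for Gng3). Of the 30 that rose, 22 lay in the lowest-GC class of 5 equal classes of genes by coding GC and 1 in the highest. Of the genes that fell, 0 lay in the lowest class and 13 in the highest. The median log2 change of all genes went from 0.08 in the lowest class to -0.03 in the highest. This slope was steepest in mutant library 2, with 0.12 and -0.10, and smaller in mutant library 1, with 0.05 and 0.01. With offsets for coding GC fitted per library, 2 genes were called by edgeR, Ccnd2 and Eif3c, and 2197 had an unadjusted p under 0.05. All 52 genes kept their sign in that fit, with a median size of 0.44.

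**Figure D2:**
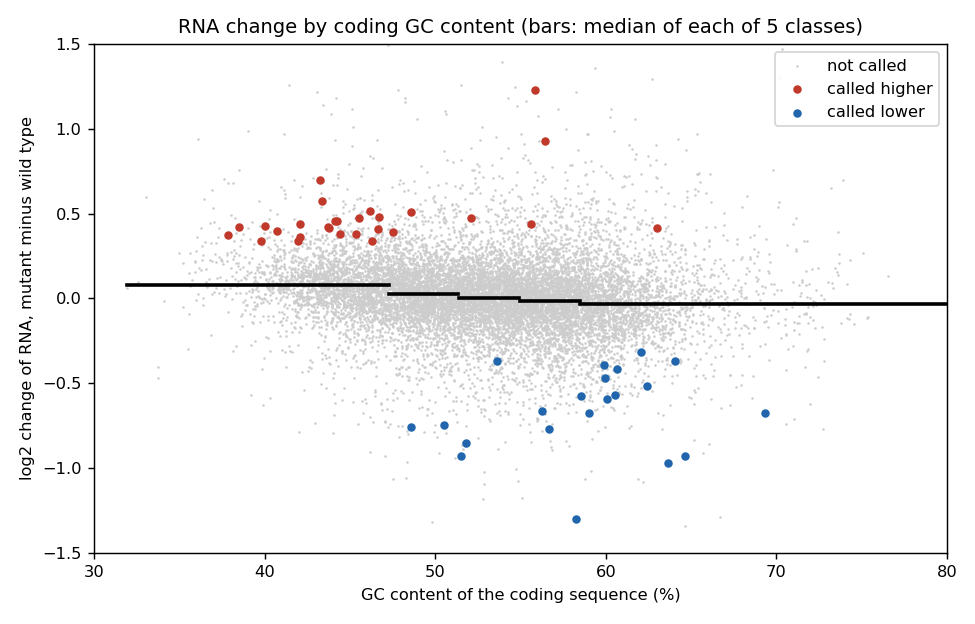
Log2 change of RNA (y axis) against GC content of the coding sequence in percent (x axis), 1 point per gene. Black bars give the median of each of 5 equal classes of genes, from 0.08 to -0.03, and called genes are coloured; Eda2r and Vmn1r90 lie above the plotted range.

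Beside base composition, the calls depended on the libraries used. Without both libraries numbered 3, a choice made after the data were examined, edgeR called 0 genes and 1033 had an unadjusted p under 0.05; the 52 genes kept their signs, with a median size of 0.45. With a term for those libraries in the fit, 1 gene was called, Eif3c. Leaving out any 1 of 4 libraries (each wild-type library, or mutant library 3) left 1 or 2 calls, while leaving out mutant library 2 gave 1528 (564 higher and 964 lower).

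Genes of cell division were among those that rose. The list of spindle, kinetochore and mitotic entry or exit genes had 80 members tested, of which 7 rose and 0 fell. The shares called among all genes tested were 0.224% higher and 0.164% lower. In 56 of the 80 all mutant libraries lay above all wild-type libraries, and in 0 below, against 11.2% and 11% of all genes tested. The median log2 change was 0.25, and 76 of 80 were positive, against 53.2% of all genes tested. The median by mutant library was 0.23, 0.15 and 0.36. It was 0.20 with offsets for coding GC, 0.27 in the 3' untranslated region and 0.17 without both libraries numbered 3.

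Kif11, the kinesin that pushes spindle poles apart, was at 206, 217 and 191 CPM in wild type and 256, 268 and 267 CPM in the mutant. The mutant libraries agreed closely and the groups did not overlap (log2 change 0.36 ± 0.06, edgeR adjusted p = 0.0394). Aurka, a kinase of spindle assembly, was at 54.1 to 59.5 CPM in wild type and at 81.0, 74.9 and 83.8 CPM in the mutant (0.48 ± 0.07). Ttk, the kinase that starts the spindle checkpoint, went from 67.3 to 72.8 CPM to 87.5, 92.6 and 98.5 CPM (0.41 ± 0.07). Kntc1 and Zwilch encode partners in one kinetochore complex. Kntc1 was at 134 to 139 CPM and then 179.8, 165 and 199 CPM, and Zwilch at 37.7 to 41.9 CPM and then 56.5, 51.5 and 58.6 CPM. Fbxo5, an inhibitor of the anaphase-promoting complex, was at 44.1 to 46.9 CPM and then 69.9, 57.7 and 61.7 CPM. Kif20b, a kinesin of late division, was at 118 to 123 CPM and then 149, 148 and 163 CPM (0.34 ± 0.06, edgeR adjusted p = 0.0498), the largest p of the 7.

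Because these 7 genes rose together, the DNA before their starts was examined for letters known from promoters of mitotic genes. RefSeq windows (GRCm38.p6) from 250 bases before to 50 bases after a start were held for 6 of the 7 genes, Zwilch being without one, and for 10382 of the 13406 genes tested. The cell cycle homology region, CHR, was searched as TTTGAA or TTCGAA and the CCAAT box as CCAAT, both on either strand. The CHR letters stood in the windows of all 6 genes and in those of 49 of 68 mitosis genes (72.1%), against 12.9% of all genes tested with a window. CCAAT stood in 5 of the 6 and in 47 of the 68 (69.1%), against 38.4%. Both stood in 57.4% of the mitosis windows and in 5.52% of all. In the DNA replication list the CHR letters stood in 7 of 50 windows (14%), and in the pan-neuronal list in 5 of 53 (9.43%). They stood in 9 of 24 windows of all genes called higher (37.5%), the 6 mitosis genes included. Among genes called lower they stood in 2 of 19 (10.5%). Since most windows of the mitosis list held the CHR letters, they do not set its called members apart. A match is a description of the sequence, not a shown site of binding. The stretches from 100 bases before to 20 after the start show the matches in 5 genes, with CHR and CCAAT letters of either strand in capitals (CHR reads TTCAAA and CCAAT reads ATTGG where they lie on the other strand):
Kif11 (chr19:37376282-37376401, plus strand): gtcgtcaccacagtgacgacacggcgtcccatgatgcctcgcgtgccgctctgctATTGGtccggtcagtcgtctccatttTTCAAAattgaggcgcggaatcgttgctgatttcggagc
Ttk (chr9:83834589-83834708, plus strand): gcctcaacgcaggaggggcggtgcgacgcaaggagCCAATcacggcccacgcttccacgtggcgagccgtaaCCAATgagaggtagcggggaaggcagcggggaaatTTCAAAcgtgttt
Fbxo5 (chr10:5805446-5805565, minus strand): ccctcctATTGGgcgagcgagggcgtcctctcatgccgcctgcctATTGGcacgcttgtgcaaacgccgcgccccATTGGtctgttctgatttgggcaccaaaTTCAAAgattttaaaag
Kntc1 (chr5:123749626-123749745, plus strand): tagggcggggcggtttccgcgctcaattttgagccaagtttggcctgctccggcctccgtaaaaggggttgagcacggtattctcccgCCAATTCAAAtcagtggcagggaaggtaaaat
Kif20b (chr19:34922258-34922377, plus strand): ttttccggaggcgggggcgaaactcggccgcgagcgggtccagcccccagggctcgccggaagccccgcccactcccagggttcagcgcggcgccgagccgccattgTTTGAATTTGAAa
In Kif20b the CHR letters occur as 2 copies in a row, 8 and 14 bases after the start, and no CCAAT was found. In Kntc1 the last letter of CCAAT is the first of the CHR match. Aurka, not shown, has 2 CCAAT matches before its start, at 51 and 19 bases, and its CHR letters 33 bases after it.

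Other called genes of division lay outside that list. Ccnd2 (chromosome 6, 127125162 to 127152193, minus strand), a D-type cyclin that carries cells through G1, was at 102, 94.0 and 105 CPM in wild type and at 222, 145 and 204 CPM in the mutant. Every mutant library exceeded every wild-type library, mutant library 2 by the least (log2 change 0.93 ± 0.13, edgeR adjusted p = 0.0365). It passed under 15 of 20 other settings, more than any called gene except Eif3c. Ccnd2 did not pass without both libraries numbered 3 (edgeR adjusted p = 0.341) or with a term for them (edgeR adjusted p = 0.0963). Its footprints were at 174 to 191 CPM in wild type and 405, 319.6 and 399.7 CPM in the mutant. Of 19 G1 genes tested Ccnd2 was the only one called, against 0.224% of all genes tested called higher. The median of the 19 was 0.08 (0.05 without mutant library 1, 0.15 without mutant library 2). Cip2a, an inhibitor of the phosphatase PP2A, was at 117 to 128 CPM and then 161, 155 and 163 CPM. Arhgap11a, a GTPase-activating protein of dividing cells, was at 82.2 to 89.8 CPM and then 113, 111 and 112 CPM.

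Genes of DNA replication formed a list of their own. Of 63 tested, 2 rose and 0 fell, all 63 had a positive log2 change, and in 30 the mutant libraries lay above all wild-type libraries. Among all genes tested, 0.224% were called higher, 53.2% were positive and 11.2% had every mutant library above. The list's median was 0.24, with 0.28, 0.09 and 0.31 in mutant libraries 1, 2 and 3, and 0.16 without both libraries numbered 3. Hells, a chromatin remodeller, was at 159, 139 and 149 CPM in wild type and 200.1, 184 and 213 CPM in the mutant (0.42 ± 0.07, edgeR adjusted p = 0.0391). Atad2, a chromatin factor of S phase, was at 188, 182 and 182 CPM and then 242, 226 and 270.5 CPM. Prim1, the primase subunit, missed the threshold at 55.8 to 63.7 CPM against 86.9, 74.0 and 83.5 CPM (edgeR adjusted p = 0.0516). A further 3 called genes of genome upkeep were outside the list. Atad5, which unloads PCNA from DNA, was at 108 to 114 CPM and then 137 to 144 CPM. Dtl, the substrate receptor of a ubiquitin ligase active in S phase, was at 69.1 to 70.4 CPM and then 89.3 to 93.3 CPM. Fignl1, a DNA repair ATPase, was at 59.5 to 61.2 CPM and then 76.8 to 86.4 CPM.

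Another set of genes that rose belongs to the nucleolus and to ribosome assembly. Of 40 ribosome biogenesis genes tested, 2 rose and 0 fell, 38 were positive, and 22 had all mutant libraries above wild type (1 below), with a median of 0.18. The shares over all genes tested were 0.224% called higher, 53.2% positive, 11.2% with every mutant library above and 11% below. Npm1, nucleophosmin, was at 165, 138 and 146 CPM in wild type and 214, 186 and 207 CPM in the mutant (0.44 ± 0.08, edgeR adjusted p = 0.0448). Wdr43, a part of the early processing complex of pre-rRNA, was at 102 to 106 CPM and then 135, 124 and 134 CPM. Taf1d, a factor of RNA polymerase I, was at 52.4 to 57 CPM and then 72.7 to 75.8 CPM. Of 82 cytosolic ribosomal protein genes, 1 rose, Rps20, at 84.2 to 93.1 CPM and then 140.3, 118 and 117 CPM. The median of those 82 was 0.15 with all libraries and -0.02 without mutant library 1, the library with the high erythroid level, and it was -0.15 in mutant library 2.

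Purine synthesis and p53 targets added single genes. Ppat, the first enzyme of purine synthesis, was at 44.8 to 49.9 CPM in wild type and 70.0, 62.0 and 69.6 CPM in the mutant. It was the 1 gene called among 20 purine genes, of which 19 were positive (median 0.20). Of 35 p53 targets, 2 rose and 0 fell (median 0.14, and 0.09 without mutant library 1). Among all genes tested, 0.224% were called higher. Ccng1, a cyclin induced by p53, was at 25.4 to 28.3 CPM and then 36.3, 39.5 and 43.9 CPM. Eda2r, a receptor of the TNF receptor family, was near the detection limit, at 0.467, 0.384 and 0 CPM in wild type and 2.56, 1.89 and 3.45 CPM in the mutant. Its footprints were at 0.644 to 0.697 CPM and then 1.88 to 2.2 CPM, so the groups were apart in that assay too. Cdkn1a, the p53-induced inhibitor of cyclin-dependent kinases, was at 5.07 to 5.37 CPM and then 9.33, 6.50 and 7.30 CPM, and was not called (edgeR adjusted p = 0.139).

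The remaining 7 genes that rose have varied roles. Eno1, a glycolytic enzyme, was at 72.4 to 80.7 CPM and then 109.8, 102 and 99.7 CPM. Ifrd1, a transcriptional coregulator, was at 107 to 119 CPM and then 154 to 157 CPM. Snx5, a sorting nexin, was at 141 to 144 CPM and then 202, 178 and 176 CPM. Ybx3, a cold-shock protein that binds RNA, was at 83.7 to 94.4 CPM and then 129, 107 and 119 CPM. Fndc3c1 was at 58.1 to 64.9 CPM and then 109, 77.9 and 107 CPM. Hbb-bt, a beta-globin gene, was at 4.67 to 7.22 CPM and then 17.9, 14.6 and 11.2 CPM, highest in the library with the most erythroid RNA. The part of that library's blood content in the Hbb-bt value was not tested. Vmn1r90, listed as a vomeronasal receptor, was at 0.615 to 1.25 CPM and then 2.78 to 5.87 CPM.

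Some of these values rest on sequence shared with other genes. Every 30-base window of the counted coding sequence was looked up in the transcripts of all other genes for 51 of the 52 called genes. For 12 genes over 10% of windows occurred elsewhere. The share was 96.3% for Hbb-bt (all in its neighbour Hbb-bs), 94.4% for Vmn1r90, 94.1% for Rps20, 88.9% for Npm1 and 87.3% for Eno1. It was 71.7% for Tma7, 57.2% for Ldhb and 40.5% for Taf1d. Lower shares were held by Fndc3c1 (31.8%) and by the mitosis genes Fbxo5 (25.6%) and Kif11 (11.9%). Values of these genes are uncertain, because how reads that fit several places were counted is not given in the sources used here. For Eif3c the share was 13.8%.

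Genes of neurons were among those that fell. Of 79 pan-neuronal genes of the cytoskeleton and synapse that were tested, 1 fell and 0 rose. In 50 every mutant library lay below every wild-type library, in 0 above, and 77 had a negative log2 change. Among all genes tested, 0.164% were called lower, 11% had every mutant library below and 53.2% had a positive change. The list's median was -0.31, with -0.51, -0.11 and -0.34 in mutant libraries 1, 2 and 3. It was -0.29 with GC offsets and -0.30 without both libraries numbered 3. Gng3, a G protein subunit of neurons, was the member called, at 45.8 to 47.4 CPM in wild type and 33.3, 33.2 and 36.9 CPM in the mutant (-0.44 ± 0.08, edgeR adjusted p = 0.0498). Mapt, which encodes tau, missed the threshold at 138, 122 and 129.7 CPM against 67.4, 100.0 and 92.3 CPM (edgeR adjusted p = 0.0580). Celf4, an RNA-binding protein of neurons, was at 90.4 to 104 CPM against 54.2, 81.8 and 62.0 CPM (edgeR adjusted p = 0.0607).

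**Figure D3:**
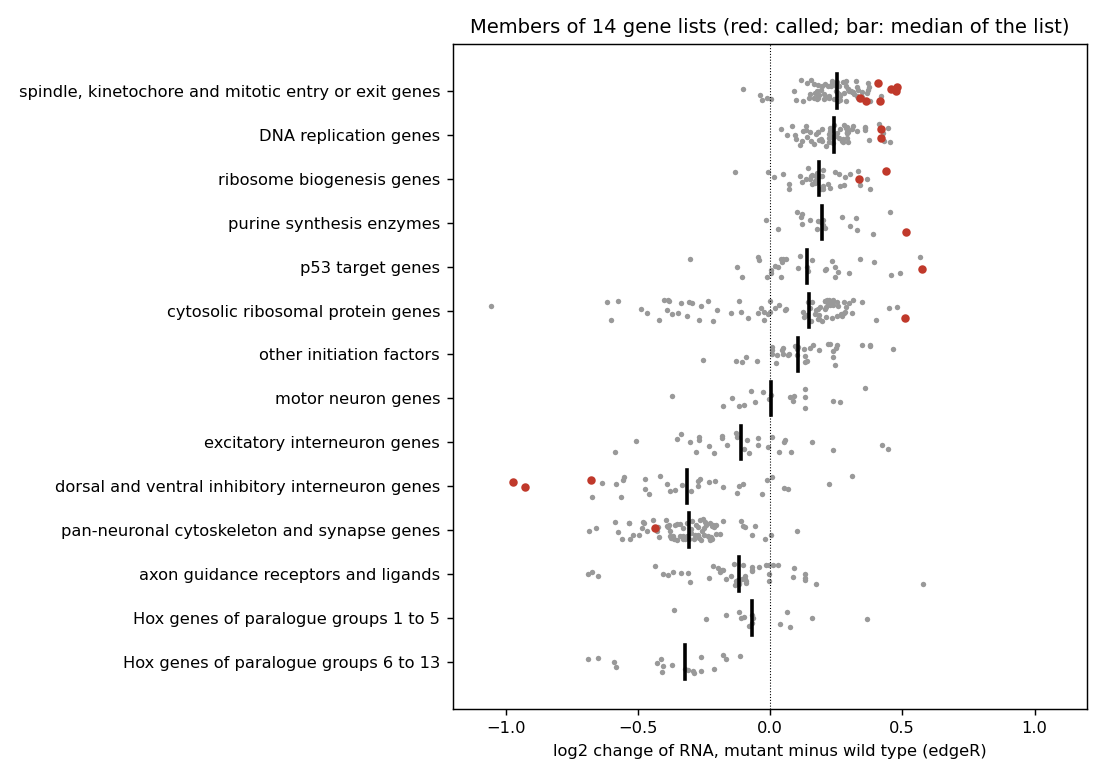
Log2 change of RNA (x axis) for each tested member of 14 gene lists (rows), with called genes in red and the list's median as a bar. Medians run from -0.32 to 0.25, and Eda2r of the p53 list, at 3.04, lies outside the range shown.

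Among neuron classes the inhibitory interneuron list held more calls than the excitatory or motor neuron lists. Of 34 inhibitory genes tested, 3 fell and 0 rose (median -0.32, 19 with an unadjusted p under 0.05). Of 30 excitatory genes 0 were called (median -0.11, 6 with an unadjusted p under 0.05). Without mutant library 2 these medians were -0.54 and -0.20. Of 19 motor neuron genes 0 were called (median 0.00, 2 with an unadjusted p under 0.05). The shares over all genes tested were 0.164% called lower and 17.5% with an unadjusted p under 0.05. Every mutant library lay below every wild-type library in 11 inhibitory, 2 excitatory and 2 motor neuron genes, against 11% of all genes tested. Every mutant library lay above in 1, 0 and 0 of them, against 11.2%. The difference between the lists was not tested. Skor1 and Skor2 encode corepressors of dorsal inhibitory neurons. Skor1 was at 79.4, 77.7 and 107 CPM in wild type and 37.3, 58.4 and 39.3 CPM in the mutant, and Skor2 at 14.1 to 16.0 CPM and then 6.77, 9.85 and 6.80 CPM. Otp, a homeobox factor, was at 74.7 to 84.6 CPM and then 42.7, 58.1 and 46.8 CPM. In all 3 genes mutant library 2 lay nearest to wild type, and the list's median in that library was -0.04 against -0.48 and -0.50 in libraries 1 and 3. Pax2, which specifies dorsal inhibitory neurons, was at 67.9 to 77.6 CPM against 44.0, 60.6 and 41.7 CPM and missed the threshold (edgeR adjusted p = 0.0586).

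Reln (chromosome 5, 21884454 to 22344702, minus strand), a secreted protein that positions migrating neurons, was at 227, 229.9 and 247 CPM in wild type and 94.7, 171 and 105 CPM in the mutant. The groups did not overlap, but the mutant libraries spread widely (log2 change -0.93 ± 0.17, edgeR adjusted p = 0.0394). Its footprints were at 292 to 362 CPM and then 134, 231 and 120.1 CPM, with the same library in the middle. Of 16 Reelin pathway genes Reln was the only one called, against 0.164% of all genes tested called lower. The median of the 16 was -0.12 (-0.06 without mutant library 1). Of 47 axon guidance genes, 0 were called by edgeR (median -0.12). Of these, 19 had an unadjusted p under 0.05, against 17.5% of all genes tested. Robo2, a receptor for Slit proteins, was at 81.4 to 101 CPM against 43.3, 70.1 and 54.8 CPM (edgeR adjusted p = 0.0584).

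Other genes that fell are membrane, signalling and growth genes. Dner, a Notch-like membrane protein of neurons, was at 148, 144 and 158 CPM in wild type and 80.7, 114 and 89.2 CPM in the mutant. Asic4, of the acid-sensing channel family, was at 72.8 to 79.9 CPM and then 43.9, 55.7 and 50.6 CPM. Kcnn1, a calcium-activated potassium channel, was at 57.3 to 65.4 CPM and then 47.3, 43.2 and 41.9 CPM. Both channel genes were below wild type in every mutant library. Atp9a, a membrane P-type ATPase, was at 174 to 176 CPM and then 104, 142 and 107 CPM, and Atp13a2, a lysosomal ATPase, was at 232 to 252 CPM and then 192 to 199 CPM. Igfbp5, which binds insulin-like growth factors, was at 76.1 to 85.9 CPM and then 47.9, 60.8 and 57.9 CPM. Its footprints were at 206 to 219 CPM and then 154 to 159.6 CPM. Spock1, an extracellular proteoglycan, was at 34 to 35.8 CPM and then 17.0, 24.4 and 19.8 CPM. Lxn, an inhibitor of carboxypeptidases, was at 24.4 to 29.4 CPM and then 14.4, 18.4 and 14.4 CPM, and its footprints were at 48.7 to 56.5 CPM against 26.5 to 28.8 CPM.

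The rest of the genes that fell comprise regulators, kinases and an enzyme. Kif26b, a kinesin-like protein, was at 65.8 to 75.2 CPM and then 38.4, 53.2 and 39.8 CPM. Esrrb, an orphan nuclear receptor at low level, was at 4.73 to 5.25 CPM and then 1.81, 2.51 and 1.77 CPM, the largest fall of the 22 (-1.30 ± 0.23, edgeR adjusted p = 0.0391). Sbk1, a kinase expressed in developing brain, was at 475 to 485 CPM and then 357, 400.0 and 359 CPM. Ndn, the imprinted gene of necdin, was at 320.0 to 353 CPM and then 234, 281 and 251 CPM. Aatk, a kinase of neurons, was at 31.0 to 32.3 CPM and then 20.2, 23.7 and 22.5 CPM. Ttc28 was at 209 to 222 CPM and then 148, 177 and 168 CPM, and Ldhb, a lactate dehydrogenase subunit, at 114 to 126 CPM and then 87.7 to 99.5 CPM. Tma7, a small protein linked to translation, was at 14.6 to 17.8 CPM and then 8.28 to 10.4 CPM in its coding sequence.

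Reads of the 3' untranslated region gave a second count from the same libraries. Of 51 called genes with enough reads there, 50 had the same sign, and 15 were called in the same direction, against 0.195% higher and 0.431% lower among all 12294 genes tested in that region. Coding and 3' reads come from the same RNA, so this is a check of counting and not an independent sample. Tma7 was the exception, with a log2 change of -0.85 ± 0.14 in the coding sequence and 0.00 ± 0.15 in the 3' region. Aurka and Taf1d were weaker in the 3' region, at 0.15 against 0.48 and at 0.14 against 0.43.

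**Figure D4:**
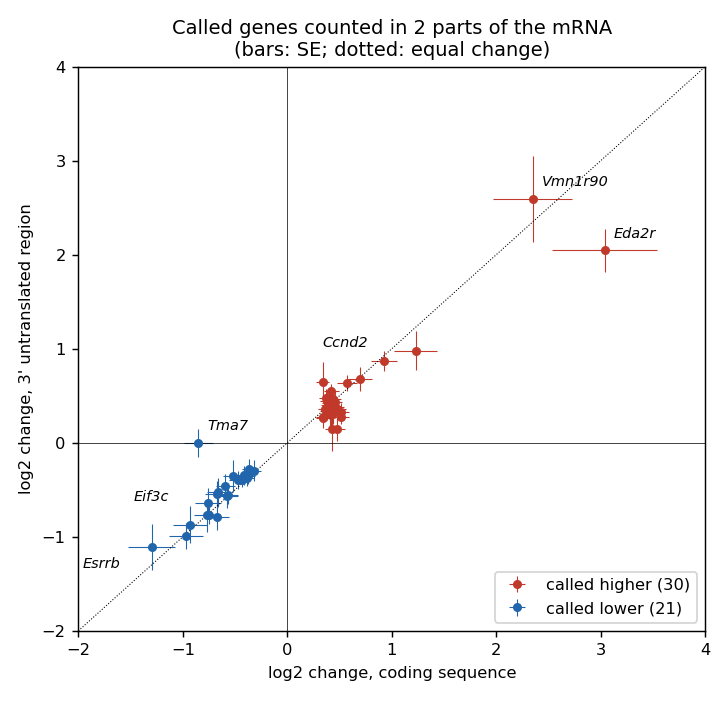
Log2 change of RNA in the coding sequence (x axis) and in the 3' untranslated region (y axis) for 51 called genes, with SE bars and a dotted line of equal change. All genes but Tma7 lie in the quadrants where both changes have the same sign.

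Footprints of the called genes were compared by library range alone, with no test. Of the 30 genes that rose in RNA, 12 had footprints above wild type in every mutant library, while 14.3% of all genes tested did. Of the 22 that fell, 13 had footprints below wild type in every mutant library, while 14.8% of all genes tested did. In 0 of the 52 were footprints separated in the opposite direction. Kif11 rose in RNA while its footprints overlapped between the genotypes, at 241 to 261 CPM in wild type and 227 to 260.1 CPM in the mutant. Cip2a was alike, with footprints at 86.9 to 95.4 CPM and 83.8 to 93.8 CPM. Whether RNA and footprint changes of these genes differ was not tested here.

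Hox genes, which record position along the body axis, were also read by paralogue group. Of 19 tested genes of groups 6 to 13, expressed toward the tail, 0 were called by edgeR. An unadjusted p under 0.05 was held by 15 of them, against 17.5% of all genes tested. All 19 had negative log2 changes, from -0.69 to -0.11 (median -0.32), and in 14 the mutant libraries lay below all wild-type libraries, against 11% of all genes. Hoxb8 was at 201, 200.4 and 195 CPM in wild type and 129, 169 and 147 CPM in the mutant (edgeR adjusted p = 0.0580). Hoxc8 was at 53.8 to 62.1 CPM against 40.6, 47.1 and 43.4 CPM (edgeR adjusted p = 0.0586). Of 15 genes of groups 1 to 5, 10 were negative, the median was -0.07 (-0.02 without mutant library 1), 0 were called and 4 had an unadjusted p under 0.05. The difference between the anterior and posterior groups was not tested. The posterior median was -0.49, -0.17 and -0.38 in mutant libraries 1, 2 and 3 and was -0.32 without both libraries numbered 3.

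Genes of patterning were mostly not called. No gene passed among 24 roof plate, 23 ventral and floor plate, 20 Hedgehog and 26 proneural genes. Of these, 10, 6, 2 and 5 had an unadjusted p under 0.05 in the edgeR test, against 17.5% of all genes tested. In 7 of the 24 roof plate genes every mutant library lay above wild type, and in 1 below, against 11.2% and 11% of all genes tested. Wnt1, a roof plate signal, was at 12.6 to 14.7 CPM against 28.6, 21.3 and 18.8 CPM (edgeR adjusted p = 0.0586), and the homeobox gene Msx1 at 27.0 to 35.2 CPM against 69.4, 45.2 and 42.4 CPM (edgeR adjusted p = 0.0685). The roof plate median was 0.33, 0.11 and -0.03 in mutant libraries 1, 2 and 3. Among 34 progenitor genes 0 were called and 7 had an unadjusted p under 0.05, with a median of -0.03. Of 31 Notch genes Dner was the 1 called, and of 51 Wnt genes Kif26b, with medians of -0.04 and 0.00. The share called in either direction was 0.388% of all genes tested. Stress lists held 0 calls, with medians of 0.05 for 31 integrated stress response genes, 0.09 for 24 chaperone genes of the endoplasmic reticulum and 0.07 for 25 heat shock genes; 6, 2 and 7 of these had an unadjusted p under 0.05. Without mutant library 2 the first median was 0.08 and the second 0.15, and without mutant library 1 the first was 0.02.

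**Figure D5:**
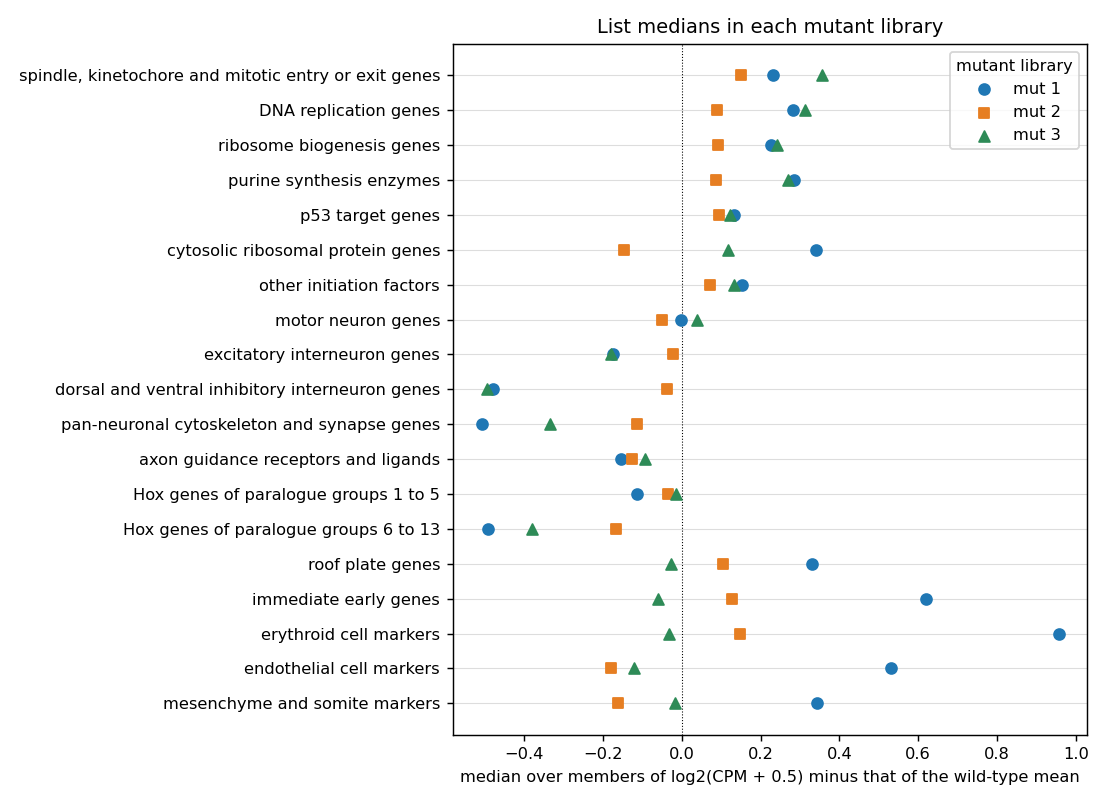
Median over the members of each of 19 gene lists (rows) of log2(CPM + 0.5) minus that of the wild-type mean (x axis), for each mutant library. Mutant library 1 stands alone for erythroid, endothelial and immediate early genes, while mutant library 2 lies nearest to 0 for most of the division and neuronal lists.

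Several lists moved with mutant library 1 alone. Erythroid genes had a median of 0.48, with 0.96, 0.15 and -0.03 in mutant libraries 1, 2 and 3, and 0.07 without library 1. The median of 19 endothelial genes was 0.15 and became -0.15 without it. The median of 25 immediate early genes was 0.32 and became 0.09. The mitosis median was 0.26 without that library and the pan-neuronal median -0.23. The part of blood and vessel content in these lists was not tested.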

How the data were processed

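Per the submitters' processing notes, cutadapt, STAR and bedtools were used with mm10. Versions, strand and the handling of reads that fit several places are not given in these sources. The authors deposited read counts per transcript region for each lane, and the coding count leaves out the first 45 and last 15 bases, as coordinates in the file show. Identifiers numbered 122941; GENCODE vM21 held 121271 of them in the same version and 1522 in another, while 148 had no gene (0.328% of coding counts). Lanes and runs were summed per library. RNA was tested with edgeR 4.0.16 (R 4.3.3; quasi-likelihood test, TMM, filterByExpr with minimum count 10 and total 15, no covariate) and Benjamini-Hochberg adjustment over all genes at 0.05; SE is the log2 change over the square root of F. DESeq2 1.42.0 and limma 3.58.1 were alternatives, and tables used Python 3.11.15, pandas 2.3.3 and Matplotlib 3.10.9. CPM are TMM-scaled, and log2 values per library used 0.5 CPM as pseudocount. The procedure was tested on simulated data. Footprint library 1 of the mutant leaves out 4 lanes that hold few chromosomes. Every called gene is named; of each list, members of smallest p are. Members and lists were chosen with earlier results of these data known. The values of 1 called gene are not reported here.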

Additional observations from a re-analysis of the deposited data

How the results depend on the processing

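Eif3c stayed past the threshold in 20 of 20 alternatives (log2 change -0.78 to -0.72, adjusted p 1.91e-23 to 0.0255). Without both libraries numbered 3, a choice made after the data were examined, it was -0.80 (edgeR adjusted p = 0.113). The count of 52 genes (30 higher, 22 lower) moved widely, and the causes were not tested. It was 408 (132 and 276) with DESeq2, 87 (46 lower) with limma-voom, 462 (170 and 292) with no filter, 86 (47 lower) with run 2 only, 4 (3 and 1) over whole transcripts, and 1 (0 and 1) with all transcripts of a gene summed. It was 2 (1 and 1) with coding GC offsets. Genes lower in the mutant numbered 53 in the 3' untranslated region and 45 with run 1 only. Leaving out 1 library at a time gave 1 to 1528 genes, 0 to 564 higher and 1 to 964 lower, the highest counts without mutant library 2. With both libraries numbered 3 left out it was 0 (0 and 0), and with a term for them 1 (0 and 1); the term too was added later. Numbers were not taken to pair the libraries, since the labels do not say that they do. Deviations of same-numbered libraries correlated at 0.105, 0.057 and 0.074, and those of libraries with different numbers at -0.088 to 0.0076. Each library correlated best with its own number, and whether the numbers mark pairs was not tested. With the replicate block the count was 196 (61 and 135), and with the replicate block and coding GC offsets 2 (1 and 1). Of 1018 values of the 51 other called genes under those 20, 523 kept the call, 494 lost it with the same sign, and 1 reversed, Tma7 in the 3' region (0.000696). Of 776 list medians, 743 moved by no more than the SD between mutant libraries. With 3 libraries per genotype, the smallest change called was 0.32 on the log2 scale.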

Other observations

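Clustered protocadherins, adhesion proteins that give neurons their surface identity, differed by cluster; they were chosen after their values were seen. All 22 tested genes of the gamma cluster had negative log2 changes, from -0.37 to -0.26 (median -0.31). In all 22 every mutant library lay below every wild-type library, as in 11% of all genes tested. The adjusted p of the 22 ran from 0.0514 to 0.0986 in the edgeR test, so 0 were called. Summed RNA of the cluster was 1680, 1670 and 1623 CPM in wild-type libraries 1, 2 and 3 and 1318, 1411 and 1295 CPM in the mutant libraries. Transcripts of this cluster share their last coding exons, so the 22 values are not independent. Of 21 beta cluster genes, each of which has its own single coding exon, 5 were negative and the median was 0.45. The beta genes summed to 77.2, 79.4 and 84.4 CPM in wild type and 80.9, 126 and 109 CPM in the mutant, with 0 called. Of 13 alpha cluster genes 3 were negative and the median was 0.09. That median was 0.29 without mutant library 1 and -0.09 in the 3' untranslated region.

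Within each genotype, footprints of Y-linked genes gave the same order of libraries as RNA did. Ddx3y, Eif2s3y, Kdm5d and Uty summed to 127, 111 and 3.19 footprint CPM in wild-type libraries 1, 2 and 3 and to 109, 54.7 and 1.93 in the mutant libraries.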
